A study of Mus musculus with 18 samples.

Results

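Doxorubicin acts on type II topoisomerases, is pumped out of cells by ATP-binding cassette (ABC) transporters and is reduced by carbonyl reductases. The 8 mouse genes described here cover these 3 roles: Top2a and Top2b encode the targets, Abcb1a, Abcb1b, Abcc1 and Abcg2 the efflux pumps, and Cbr1 and Cbr3 the reductases. They were taken by symbol from a deposited expression table of 21959 genes, and all 8 passed the filter on low counts. RNA sequencing was done on 18 libraries of MOVAS, an immortalised line of mouse aortic smooth muscle cells, in 6 groups of 3. Blank cells were untreated, H2O2 cells received hydrogen peroxide, an oxidant, and Dox cells received doxorubicin, an anthracycline; the study used both agents to induce senescence. The B_I, H_I and D_I libraries carry isoliensinine, a plant alkaloid, as their only treatment label; because the titles run in parallel they are taken here as Blank, H2O2 and Dox cells that also received it. No dose or exposure time was available, and every group came from the same cell line. The study's title concerns the clearance of senescent smooth muscle cells by natural killer cells under isoliensinine.

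Type II topoisomerases pass one DNA duplex through a break in another, and doxorubicin holds the enzyme on the broken DNA. TOP2A is made mainly by dividing cells, whereas TOP2B is also present in resting cells and is studied as a mediator of anthracycline damage in the heart. P-glycoprotein, which human cells make from a single gene, is encoded in mice by the paralogs Abcb1a and Abcb1b, while Abcc1 encodes MRP1 and Abcg2 encodes BCRP. Carbonyl reductases convert doxorubicin to the alcohol doxorubicinol.

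Totals ran from 12859609 to 23284077 counts per library, and each Dox library (at least 20140802) was deeper than any library outside that group (at most 17955971). Among 8 smooth muscle markers, Acta2 averaged 930 to 2517 CPM by group (counts scaled to library size and by trimmed means of M-values, TMM), whereas Tagln and Myocd averaged under 1 CPM in all 6 groups. Cdkn1a, the p53 target that encodes p21, averaged 99.4 CPM in Blank, 223 in H2O2 and 456 in Dox, and was called higher than in Blank in both treated groups (log2 difference 1.16, edgeR adjusted p = 2.61e-05, in H2O2; 2.20, adjusted p = 4.36e-10, in Dox). The libraries Blank_4 (-69.7) and B_I_3 (-61.3) lay at the low end of the first principal component, which held 23.5% of the variance. All 18 libraries held transcripts of at least 11 of 13 colon epithelium markers, at a summed level of 47.8 to 809 CPM, with the highest sum in H_I_1.

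The deposited table names no genome build. In its coordinates Top2a (ENSMUSG00000020914) lies on chromosome 11 from 98883769 to 98915015, minus strand, and Top2b (ENSMUSG00000017485) on chromosome 14 from 6034301 to 6104584, minus strand. The pair Abcb1a (ENSMUSG00000040584, 8710077 to 8798575) and Abcb1b (ENSMUSG00000028970, 8848147 to 8916315) lies on the plus strand of chromosome 5. Abcc1 (ENSMUSG00000023088) lies on the plus strand of chromosome 16 from 14179422 to 14293601 and Abcg2 (ENSMUSG00000029802) on the plus strand of chromosome 6 from 58561508 to 58672661. The reductase genes Cbr1 (ENSMUSG00000051483, 93402741 to 93407393) and Cbr3 (ENSMUSG00000022947, 93480103 to 93487878) follow each other on the plus strand of chromosome 16. For Top2b, 14.7% of the 100-base windows of its longest GENCODE transcript also occur in transcripts of Rarb, a retinoic acid receptor gene, and whether counting used strand was not stated. For Abcb1a and Abcb1b, 8.51% and 8.89% of such windows occur in other transcripts, mostly each other's, so both values carry some uncertainty from shared reads.

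Upstream sequences are shown for Abcb1b and Abcg2, the pumps whose transcripts passed the test with doxorubicin, for Abcb1a, the paralog that did not, and for Top2a, the one of the 8 genes whose level ran closest to that of Abcb1b. Each is the 250 bases before a RefSeq start site in GRCm38.p6, written 5′ to 3′ on the gene's strand. Capitals mark matches on either strand to the antioxidant response element core TGACNNNGC, the cell cycle element TTTGAA (CHR), the box CCAAT bound by NF-Y, or the GC box GGGCGG.
Abcb1b, chr5:8797897-8798146, plus strand: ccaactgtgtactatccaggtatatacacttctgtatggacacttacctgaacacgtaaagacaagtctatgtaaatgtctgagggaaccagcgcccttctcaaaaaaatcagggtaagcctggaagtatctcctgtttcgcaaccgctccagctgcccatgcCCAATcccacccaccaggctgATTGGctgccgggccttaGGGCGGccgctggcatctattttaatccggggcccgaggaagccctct
Abcb1a, chr5:8566841-8567090, plus strand: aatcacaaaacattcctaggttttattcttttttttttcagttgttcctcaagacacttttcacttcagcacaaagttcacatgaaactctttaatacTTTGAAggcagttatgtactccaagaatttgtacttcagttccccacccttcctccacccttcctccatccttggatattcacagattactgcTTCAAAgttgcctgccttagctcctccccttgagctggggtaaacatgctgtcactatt
Abcg2, start 1 of 3, chr6:58584283-58584532, plus strand: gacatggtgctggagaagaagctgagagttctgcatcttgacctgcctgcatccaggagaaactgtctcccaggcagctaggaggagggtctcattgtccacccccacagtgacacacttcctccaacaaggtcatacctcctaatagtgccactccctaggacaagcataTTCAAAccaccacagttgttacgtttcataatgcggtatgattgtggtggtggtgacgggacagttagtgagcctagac
Abcg2, start 2 of 3, chr6:58596422-58596671, plus strand: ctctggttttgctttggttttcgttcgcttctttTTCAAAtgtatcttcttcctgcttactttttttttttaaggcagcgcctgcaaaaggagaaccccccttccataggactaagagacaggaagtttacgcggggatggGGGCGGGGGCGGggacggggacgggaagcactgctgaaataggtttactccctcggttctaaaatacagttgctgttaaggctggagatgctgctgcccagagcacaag
Abcg2, start 3 of 3, chr6:58640296-58640545, plus strand: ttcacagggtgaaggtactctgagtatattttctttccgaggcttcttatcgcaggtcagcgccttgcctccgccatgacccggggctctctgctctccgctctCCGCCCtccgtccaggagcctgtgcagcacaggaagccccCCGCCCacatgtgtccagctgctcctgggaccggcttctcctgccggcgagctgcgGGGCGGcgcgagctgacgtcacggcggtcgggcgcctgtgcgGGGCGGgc
Top2a, chr11:99024190-99024439, minus strand: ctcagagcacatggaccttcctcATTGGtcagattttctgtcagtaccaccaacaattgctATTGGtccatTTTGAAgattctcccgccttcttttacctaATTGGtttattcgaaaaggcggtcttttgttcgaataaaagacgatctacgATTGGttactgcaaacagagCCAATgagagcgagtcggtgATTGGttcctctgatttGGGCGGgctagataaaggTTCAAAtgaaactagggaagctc

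RefSeq promoters were matched for 7 of the 8 genes (not for Abcc1) and searched from 250 bases before to 50 after the start. The Top2a window held 6 matches to CCAAT and 2 to TTTGAA, the layout of several short motifs visible in its line above. Abcb1b held 2 CCAAT matches and 1 GC box and no TTTGAA, whereas Abcb1a held 2 TTTGAA matches and no CCAAT, so the paralogs' windows differed in these letters. Whether Abcb1b and Abcb1a differed in their response to doxorubicin was not tested. The TGACNNNGC core was found for Top2b and, 27 bases after the start, for Abcb1a. Among 32544 promoter windows of 300 bases, TGACNNNGC occurred in 12.4%, TTTGAA in 17.8%, CCAAT in 37.4% and GGGCGG in 35.9%. Among the 7 matched genes they occurred for 2, 4, 5 and 5. These gene counts take a match at any start, and Abcg2 has several, whereas the percentages are per window, so they are not directly comparable.

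Per gene length, the reductase Cbr3 was the most abundant of the 8, with a median of 30 FPKM over the 18 libraries (21 to 36.1). Top2a followed at 10.8 FPKM (4.82 to 21), then Abcc1 at 5.5 and Cbr1 at 5.48. The remaining pumps and Top2b lay near or below 1 FPKM: Abcg2 at 0.929, Top2b at 0.643, Abcb1b at 0.595 and Abcb1a at 0.314. Abcb1a had only 4 to 140 counts per library, and Abcb1b 23 to 245, which limits the precision of both. Within each pair of relatives, Top2a made up 90.8% to 96.6% of the type II topoisomerase FPKM and Cbr3 79.7% to 89.1% of the FPKM of the 2 carbonyl reductases. FPKM depends on the deposited gene length, 2554 bases for Cbr1 and 1254 for Cbr3. Their longest GENCODE protein-coding transcripts have 1237 and 1170 bases. Without scaling to length, Cbr1 and Cbr3 averaged 13.6 and 32.4 CPM in Blank.

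**Figure D1:**
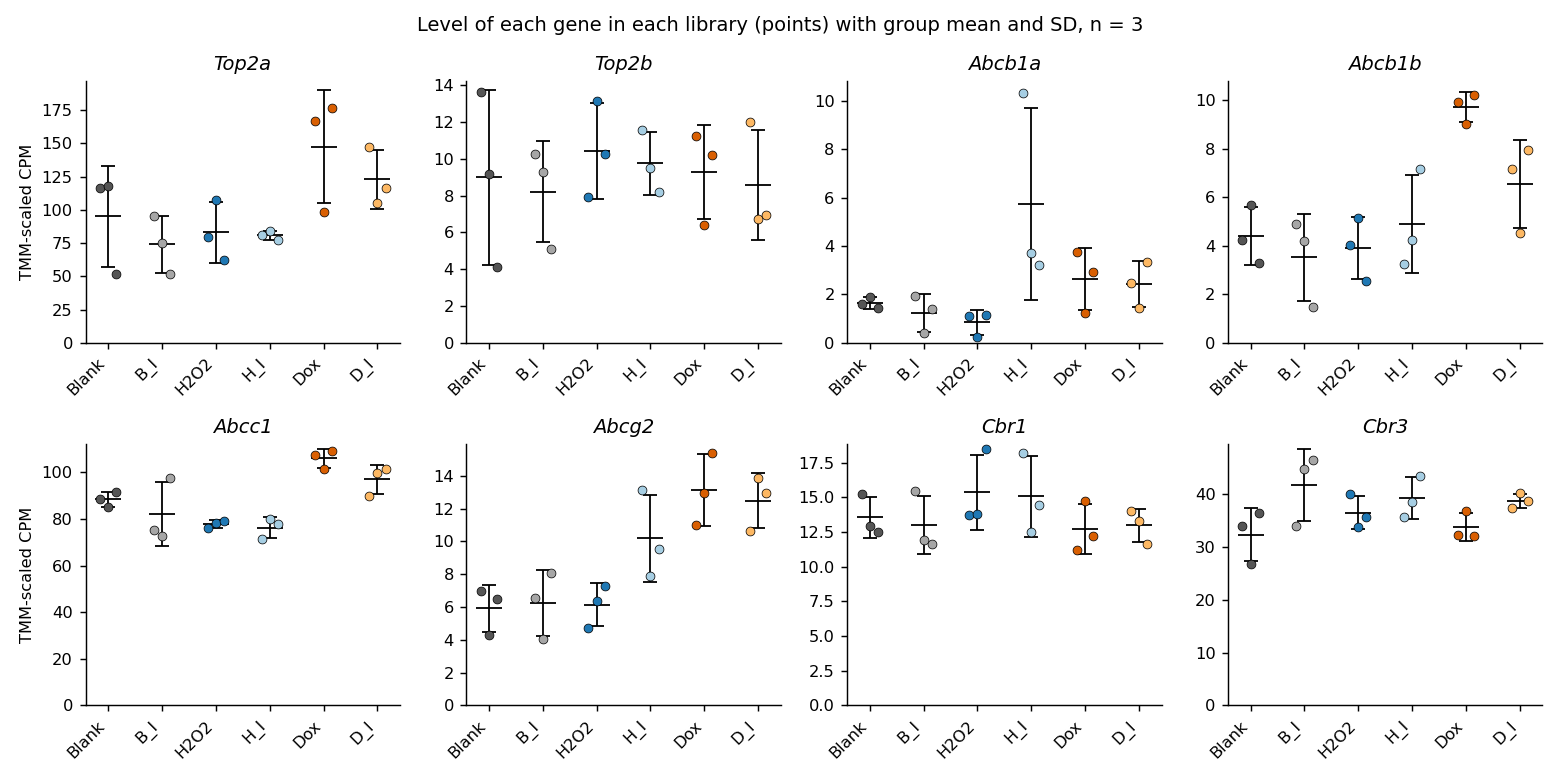
TMM-scaled CPM of the 8 genes (vertical axes, starting at 0) in the 6 groups (horizontal axes); points are libraries, and bars give the group mean and SD of 3 libraries. Abcb1b in Dox (9.02 to 10.2 CPM) lies above every other library, and H_I_1 stands apart for Abcb1a at 10.3 CPM.

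In Dox, the transcripts of 2 of the 8 genes rose over Blank, both of them efflux pumps: Abcb1b 2.2-fold and Abcg2 2.22-fold. The topoisomerases and the reductases were not called. All 4 pumps had positive differences, with a median log2 difference of 0.91 against 0.081 over all genes tested. Of the 13375 genes tested with edgeR's quasi-likelihood test, 21.7% were called in Dox against Blank at an adjusted p under 0.05 (10.3% higher and 11.4% lower), so 2 of 8 is close to the share of all genes. In these bulk samples, a different number of cells of a type and a different amount of RNA per cell cannot be told apart.

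Abcg2, whose product BCRP exports many drugs and porphyrins, stood at 6.97, 4.31 and 6.46 CPM in Blank and at 11, 12.95 and 15.4 CPM in Dox. The lowest Dox library lay above the highest Blank library. The mean rose from 5.92 ± 1.41 to 13.1 ± 2.20 CPM (SD, n = 3), a log2 difference of 1.15 (SE 0.274, edgeR adjusted p = 0.00417). The call held in 16 of 16 alternative analyses, with adjusted p from 0.000475 to 0.028. In D_I the libraries stood at 10.65, 13.9 and 12.95 CPM and in B_I at 6.58, 4.07 and 8.09 CPM, again without overlap. D_I against B_I gave a log2 difference of 0.9993 (SE 0.273, edgeR adjusted p = 0.0128), which is about a doubling; the call was lost without B_I_2 (0.75, adjusted p = 0.0906) or without D_I_2 (0.92, adjusted p = 0.0562). The comparison with H2O2 cells (4.72, 6.39 and 7.30 CPM) gave 1.10 (SE 0.274, edgeR adjusted p = 0.0104), which did not pass without H2O2_1 (0.95, adjusted p = 0.0544) or Dox_3 (0.97, adjusted p = 0.064).

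Abcb1b, the P-glycoprotein gene known from the adrenal gland, was measured at 4.23, 5.67 and 3.31 CPM in Blank and at 9.91, 9.02 and 10.2 CPM in Dox. Dox was its highest group, and the only neighbouring groups that did not overlap in its order of means were Dox and the next, D_I. The mean rose from 4.403 ± 1.19 to 9.72 ± 0.624 CPM, with a log2 difference of 1.14 (SE 0.379, edgeR adjusted p = 0.0353). This call lay near the threshold. It was lost without Blank_1 (adjusted p = 0.0898), Blank_4 (0.127), Dox_1 (0.0846), Dox_2 (0.0561) or Dox_3 (0.0981), with log2 differences of 0.94 to 1.37 over all single omissions; with Blank_4 and B_I_3 both left out it was 0.95 (adjusted p = 0.0491). Against H2O2, with libraries at 4.02, 5.15 and 2.56 CPM, the log2 difference was 1.31 (SE 0.383, edgeR adjusted p = 0.0271), lost without H2O2_1 (adjusted p = 0.0675), H2O2_3 (0.124), Dox_1 (0.0745) or Dox_3 (0.0895). The D_I libraries stood at 7.16, 4.52 and 7.95 CPM, and D_I_2 overlapped the B_I libraries at 4.89, 4.195 and 1.48 CPM. D_I against B_I gave 0.89 (95% interval 0.0901 to 1.69, edgeR adjusted p = 0.116).

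Abcb1a, the paralog known from the intestinal epithelium and the blood-brain barrier, stood at 1.62, 1.91 and 1.43 CPM in Blank and at 3.76, 1.21 and 2.94 CPM in Dox. The Dox libraries spread on both sides of Blank, and the log2 difference of 0.67 (95% interval -0.568 to 1.92) was not called (edgeR adjusted p = 0.485). Each Dox library lay above the H2O2 libraries (1.13, 0.248 and 1.17 CPM), which rest on 16, 4 and 15 counts. Dox against H2O2 gave 1.655 (95% interval 0.337 to 2.97), not called (edgeR adjusted p = 0.0906). The Abcb1a difference from H2O2 passed in 2 of 12 alternatives, and over single omissions its edgeR adjusted p was 0.0539 to 0.29. D_I against B_I gave 0.96 (edgeR adjusted p = 0.312). Counts of the paralogs were also summed before the fit. A sum covers reads split between the paralogs but restores none that were dropped as shared. With Abcb1a and Abcb1b summed, the level was higher in Dox than in Blank by 1.03 on the log2 scale (SE 0.306, edgeR adjusted p = 0.0189), higher than in H2O2 by 1.37 (SE 0.311, adjusted p = 0.00515) and higher in D_I than in B_I by 0.91 (SE 0.311, adjusted p = 0.0445). The sum's call against Blank was lost without Blank_1 (adjusted p = 0.0555), Blank_4 (0.0824), Dox_1 (0.0689) or Dox_3 (0.0638), and its call in D_I against B_I without B_I_2 (0.139), B_I_3 (0.214), D_I_1 (0.126) or D_I_3 (0.186). The call against H2O2 held in 13 of 13 alternatives.

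Abcc1, whose product MRP1 exports glutathione conjugates and anthracyclines, was the most abundant of the pump transcripts per gene length. It stood at 88.4, 85.4 and 91.8 CPM in Blank, at 107, 101 and 109 CPM in Dox and at 76.1, 78.4 and 79.1 CPM in H2O2. The 3 groups did not overlap: Dox was highest and H2O2 lowest. Dox against H2O2 was called at a log2 difference of 0.45 (SE 0.107, edgeR adjusted p = 0.0078), a 1.36-fold difference that held in 15 of 15 alternatives. Dox against Blank (0.26, 95% interval 0.0394 to 0.482, edgeR adjusted p = 0.087) and H2O2 against Blank (-0.18, adjusted p = 0.478) were not called. The first of these passed in 4 of 16 alternatives, among them limma on log2(FPKM + 1) (0.38 on that scale, adjusted p = 0.0051). Over single omissions its edgeR adjusted p was 0.098 to 0.227. D_I (89.9, 99.6 and 102 CPM) overlapped B_I (75.5, 72.8 and 97.7 CPM), at 0.24 (edgeR adjusted p = 0.124). D_I against B_I passed in 5 of 16 alternatives. Without B_I_3, the highest of these B_I libraries, it was 0.36 (adjusted p = 0.0223), and over all single omissions the edgeR adjusted p ran up to 0.475.

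Top2a varied widely within groups. Blank stood at 116.5, 118 and 51.4 CPM, with the low value in Blank_4, and Dox at 167, 98.6 and 177 CPM. The log2 difference of 0.63 (95% interval 0.0243 to 1.23) was not called (edgeR adjusted p = 0.135). Against H2O2 (79.7, 107.5 and 62.3 CPM) the difference was 0.83 (edgeR adjusted p = 0.0683), and D_I (147.5, 105 and 116.5 CPM) against B_I (95.1, 74.9 and 51.9 CPM) gave 0.73 (adjusted p = 0.0894) with libraries that did not overlap. Dox against H2O2 passed in 4 of 15 alternatives, among them those without H2O2_2 (1.06, adjusted p = 0.043) or Dox_2 (1.05, adjusted p = 0.0276). Over single omissions its edgeR adjusted p ran up to 0.267. Top2a in D_I against B_I passed in 3 of 16 alternatives, and over single omissions its edgeR adjusted p was 0.0542 to 0.349. Top2b ranged from 4.13 to 13.6 CPM, both extremes being Blank libraries, and its log2 difference in Dox against Blank was 0.042 (95% interval -0.698 to 0.783, edgeR adjusted p = 0.956). Its direction turned to -0.32 when Blank_4 and B_I_3 were left out, so no direction is given.

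Neither reductase was called in Dox against Blank. Cbr1 stood at 15.3, 12.9 and 12.5 CPM in Blank and at 11.2, 14.8 and 12.2 CPM in Dox (log2 difference -0.095, 95% interval -0.501 to 0.312, edgeR adjusted p = 0.794). Cbr3 stood at 33.9, 26.8 and 36.4 CPM in Blank and at 32.3, 36.9 and 32.1 CPM in Dox (0.062, 95% interval -0.236 to 0.359, adjusted p = 0.819). The groups overlapped for both genes. The intervals exclude a 2-fold change in either direction. Under limma on FPKM values, which are not scaled by TMM, Cbr1 had the opposite sign (0.067 with a pseudocount of 1 and 0.079 with 0.1).

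**Figure D2:**
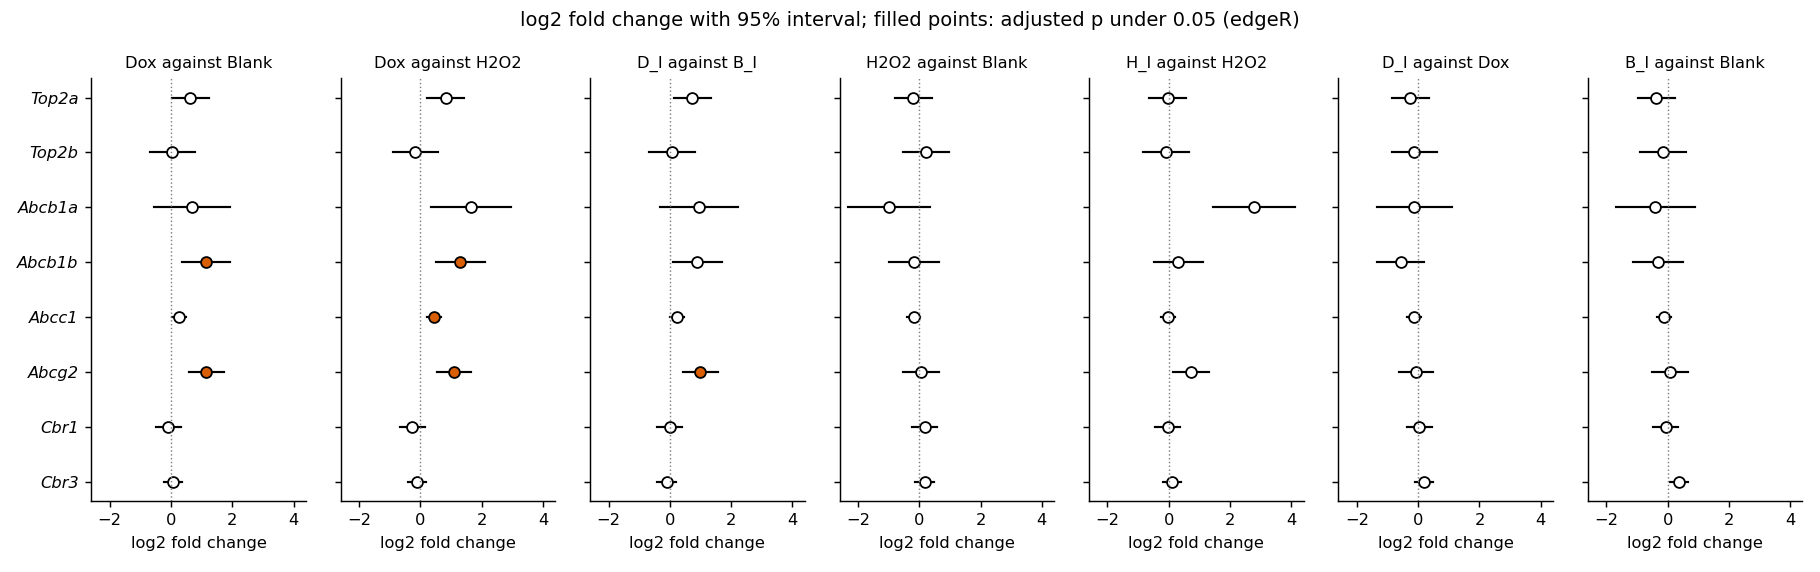
log2 fold changes from edgeR (horizontal axes) with 95% intervals for the 8 genes (rows) in 7 comparisons (panels); filled points have an adjusted p under 0.05. Filled points are Abcb1b and Abcg2 in Dox against Blank, these and Abcc1 in Dox against H2O2, and Abcg2 in D_I against B_I; the interval of Abcb1a in H_I against H2O2 (1.43 to 4.11) also lies above 0.

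In the direct comparison of the inducers, 3 of the 8 genes, the pumps Abcb1b, Abcc1 and Abcg2, were higher in Dox than in H2O2 and none was lower. The background was 13.1% of tested genes called, 6.73% higher and 6.33% lower. D_I against B_I, which repeats the doxorubicin contrast in isoliensinine arms, called 1 of 8 (Abcg2) where 18.8% of tested genes were called, 9.41% in each direction. These comparisons share libraries with others (Dox with Dox against Blank, H2O2 with H2O2 against Blank), so their values are given side by side and not as independent evidence.

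Hydrogen peroxide called 0 of the 8 genes against Blank, against 1.43% of all genes tested (0.636% higher, 0.793% lower). edgeR gave 0 at an unadjusted p under 0.05, DESeq2 also called 0, and so did limma among the 6 genes it tested (all but Top2b and Abcb1a, which did not reach 1 FPKM in 3 libraries). Over the whole table, 13.6% of tested genes had an unadjusted p under 0.05, and DESeq2 called 425 genes. The largest difference was that of Abcb1a, at 1.13, 0.248 and 1.17 CPM in H2O2, all below the Blank libraries (log2 difference -0.98, 95% interval -2.32 to 0.363, edgeR adjusted p = 0.55). These rest on 4 to 31 counts per library. Abcg2 differed by 0.053 and Abcb1b by -0.17, and both signs turned without Blank_2 or H2O2_3 (for Abcg2 -0.14 and -0.087, for Abcb1b 0.053 and 0.055). The other 4 genes apart from Abcc1 differed by -0.20 (Top2a) to 0.21 (Top2b), with libraries that overlapped. H_I against B_I called 0 of 8, where 1.46% of tested genes were called (0.464% higher, 0.994% lower). Abcb1a and Abcg2 had an unadjusted p under 0.05 (2 of 8), where 17.4% of all tested genes did. DESeq2 called 1 member and 515 genes in all, and limma called 0 of the 6 members it tested. The Abcb1a difference in H_I against B_I was 2.20 (95% interval 0.918 to 3.48, edgeR adjusted p = 0.0742). It passed in 4 of 13 alternatives.

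Isoliensinine called 0 of the 8 genes in each of its 3 settings, and 0% of all tested genes were called in B_I against Blank, D_I against Dox and H_I against H2O2. At an unadjusted p under 0.05, edgeR gave 1 of the 8 genes (Cbr3), 0 and 2 (Abcb1a and Abcg2) in these comparisons; DESeq2 called 0, 0 and 1 and limma 0 of 6 in each. Over all genes, 640, 556 and 915 had an unadjusted p under 0.05, and DESeq2 called 1, 25 and 70. The differences between isoliensinine effects, tested as interactions, also called 0 of 8 and 0% of all genes, both for doxorubicin and for hydrogen peroxide. At an unadjusted p under 0.05 there were 0 members for doxorubicin, where 3.9% of all tested genes passed. For hydrogen peroxide there was 1 (Abcb1a), where 6.08% of all tested genes passed. In both DESeq2 called 0 of 8 and limma 0 of 6, without Abcb1a.

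With doxorubicin, isoliensinine left Abcg2 at 12.5 against 13.1 CPM on average (log2 difference -0.070, 95% interval -0.620 to 0.480, edgeR adjusted p = 0.999). Abcb1b was lower in each D_I library than in any Dox library, with means of 6.55 and 9.72 CPM, but the difference of -0.57 (95% interval -1.34 to 0.201) was not called (edgeR adjusted p = 0.999). The interaction for Abcb1b was -0.25 (SE 0.538, edgeR adjusted p = 1). Cbr3 was higher in each D_I library (37.5, 40.2 and 38.7 CPM) than in any Dox library, by 0.20 (95% interval -0.0962 to 0.496, edgeR adjusted p = 0.999). The remaining 5 genes overlapped, with differences from -0.26 (Top2a) to 0.030 (Cbr1). How many of all tested genes had libraries apart in D_I against Dox was not counted, so the separation of Abcb1b and Cbr3 has no background. Cbr3 in cells without an inducer stood at 34.0, 44.8 and 46.5 CPM with isoliensinine against 33.9, 26.8 and 36.4 CPM without, a difference of 0.37 (95% interval 0.0694 to 0.667, edgeR adjusted p = 0.983) with overlapping libraries.

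With hydrogen peroxide, Abcb1a had the largest isoliensinine difference of the 8 genes. The H_I libraries stood at 10.3, 3.70 and 3.24 CPM and the H2O2 libraries at 1.13, 0.248 and 1.17 CPM, without overlap. The log2 difference was 2.77 (SE 0.644, 95% interval 1.43 to 4.11), the unadjusted p 0.000315 and the edgeR adjusted p 0.234; without H_I_1 it was 2.05 (adjusted p = 0.938). DESeq2 called it (2.78, adjusted p = 0.0136). The interaction, which sets this against isoliensinine in untreated cells, was 3.18 (SE 0.89, edgeR adjusted p = 0.765). Abcg2 in H_I (13.1, 7.89 and 9.51 CPM) also lay above every H2O2 library, its highest value in H_I_1, with a log2 difference of 0.73 (SE 0.276, edgeR adjusted p = 0.58). Abcb1b did not share this pattern in its values (3.25, 4.26 and 7.15 CPM in H_I), and its difference was 0.32 (edgeR adjusted p = 0.931) and turned to -0.062 without H_I_3.

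Abcb1a moved beside transcripts of colon epithelium. The summed level of 13 colon markers was 809, 239 and 310.5 CPM in H_I and 59.7, 47.8 and 186 CPM in H2O2, where 11 to 13 of the 13 were above 0. In H_I against H2O2 the 13 markers had a median log2 difference of 2.21, against 0.0213 over all tested genes. edgeR called 0 of them, DESeq2 called 3 and limma 0 of the 11 it tested. An unadjusted p under 0.05 was found for 11, where 6.84% of all tested genes had one. Markers of other cell types also had positive medians: 1.51 for liver, 0.717 for macrophages, 0.633 for endothelium and 0.176 for smooth muscle. Of these edgeR called 0 as well. H_I_1 had the highest marker sum, the highest Abcb1a level and the highest sum of 7 liver markers (314 CPM). Within groups, the libraries stood in the same order by marker sum and by Abcb1a in 3 of the 6 groups (H2O2, Dox and D_I) and in another order in Blank, B_I and H_I. By log2 CPM over the 18 libraries, the 3 genes most like Abcb1a were Myo1a, a myosin of intestinal brush borders (Pearson r = 0.93), Lyz1, a lysozyme of Paneth cells (0.878), and Aim2, a DNA sensor (0.858). The part of these transcripts in the Abcb1a values was not tested. Muc2, the main secreted mucin of the colon, stood at 169 CPM in H_I_1 and at 6.39 CPM in H2O2_2, the libraries with the highest and lowest Abcb1a.

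**Figure D3:**
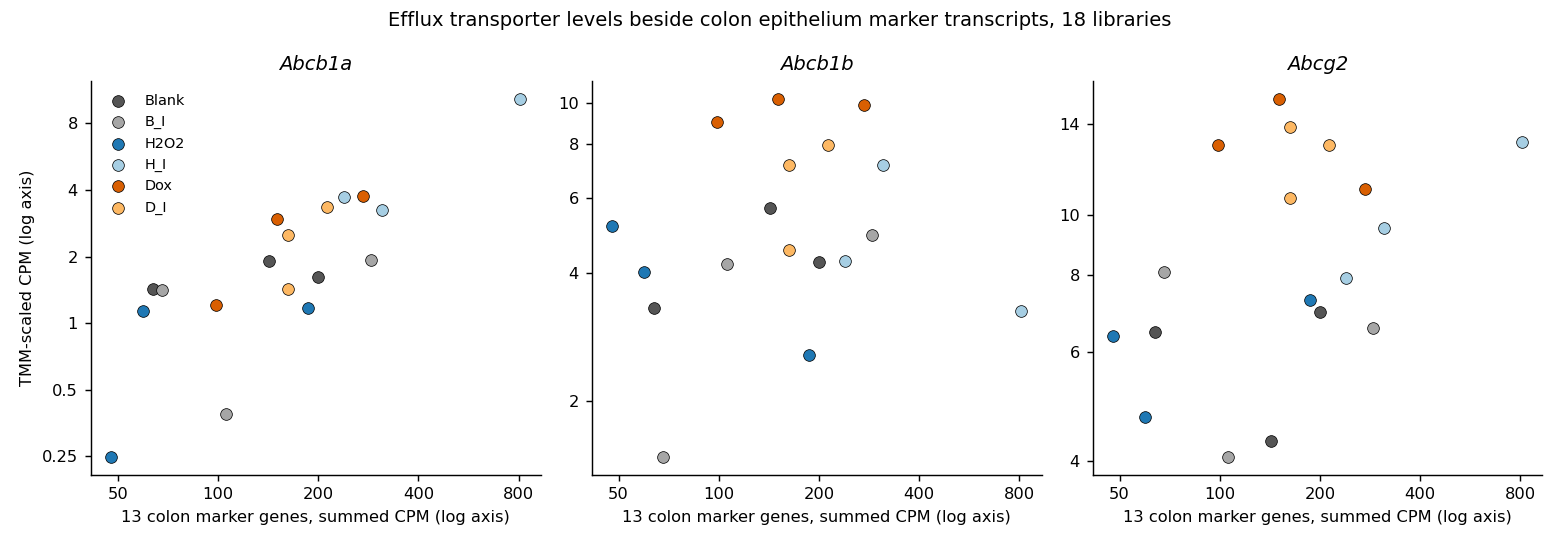
TMM-scaled CPM of Abcb1a, Abcb1b and Abcg2 (vertical log axes) against the summed CPM of 13 colon epithelium markers (horizontal log axes) in the 18 libraries, coloured by group. H_I_1 lies at the upper right for Abcb1a (10.3 CPM at a marker sum of 809 CPM), whereas the Dox libraries, with marker sums of 98.6 to 273 CPM, hold the 3 highest Abcb1b values.

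For Abcb1b and Abcg2 the part of the colon transcripts was not tested either. The marker sums were 273, 98.6 and 150 CPM in Dox and 200, 142.5 and 63.7 CPM in Blank, with libraries that overlapped. The genes most like Abcb1b were Zc3hav1 (r = 0.896), Dync1i2 (0.892) and Exoc6b (0.891), and those most like Abcg2 were Tbc1d8 (0.911), Eif4a2 (0.895) and Lce1g (0.869). Among pairs of the 8 genes, Top2a and Abcb1b were the most alike (r = 0.815), and Abcb1a and Abcb1b, the paralogs, had r = 0.202. Top2a itself ran closest to Cltc, the clathrin heavy chain (0.979), Baz1b (0.963) and Dipk2a (0.947). Abcc1 was most like Ufd1 (0.934), Pclaf (0.931) and Myh9 (0.923). Top2b followed Mindy2 (0.904), Znrf2 (0.898) and Zfp148 (0.881). The reductases had lower maxima, with Hsd3b2 for Cbr1 (0.788) and Abhd12 for Cbr3 (0.804). These are descriptions over 18 libraries that share groups and depth.

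The share of counts in long genes also moved with doxorubicin. Genes longer than 7000 bases, a class chosen after seeing the values, took 15.7% to 17.6% of the counts in Dox and D_I libraries and 13.4% to 15.4% in all others. By the deposited gene lengths, Top2a (9013 bases), Top2b (14613), Abcb1b (7990), Abcc1 (15092) and Abcg2 (8153) belong to this class. Abcb1a (5480), Cbr1 (2554) and Cbr3 (1254) do not. The longest GENCODE protein-coding transcripts are shorter: Top2a 5221 bases, Top2b 10335, Abcb1b 4306, Abcc1 6792, Abcg2 5717 and Abcb1a 4997. Of these transcripts only that of Top2b exceeds 7000 bases, and that of Abcb1b is shorter than that of Abcb1a. In Dox against Blank the 3310 long genes tested had a median log2 difference of 0.19, against 0.081 over all tested genes. Of the long genes 12.3% were called higher and 5.65% lower, against 10.3% and 11.4% of all tested genes. The part of gene length in the results was not tested.

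**Figure D4:**
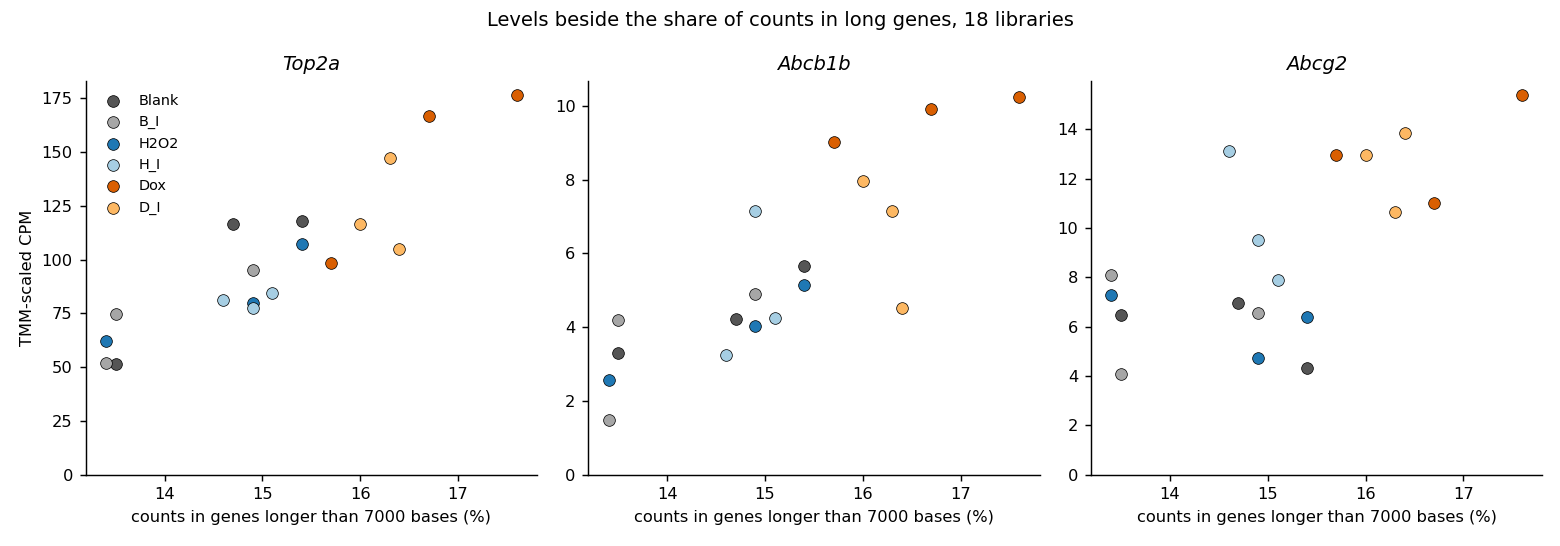
TMM-scaled CPM of Top2a, Abcb1b and Abcg2 (vertical axes, from 0) against the percentage of a library's counts in genes longer than 7000 bases (horizontal axes) in the 18 libraries, coloured by group. The 6 Dox and D_I libraries lie at 15.7% to 17.6%, to the right of the other 12; Dox_3, at 17.6%, has the highest level of each gene.

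The remaining genes of these pathways were taken from lists by role. Over all tested genes, 10.3% were higher and 11.4% lower in Dox against Blank, with a median log2 difference of 0.081. The shares were 9.41% in each direction in D_I against B_I. They were 6.73% and 6.33% in Dox against H2O2 and 0.636% and 0.793% in H2O2 against Blank. At an unadjusted p under 0.05, the edgeR shares in either direction were 32.8% in Dox against Blank, 26.5% in Dox against H2O2 and 13.6% in H2O2 against Blank. Of 11 other topoisomerases and repair factors for topoisomerase adducts, 1 was higher in Dox than in Blank (Top3b, which acts on DNA and RNA, log2 difference 0.41, edgeR adjusted p = 0.00683; 0.0695 with only the compared groups fitted) and none lower, with a list median of 0.16; DESeq2 called 2 and limma 3 of the 9 it tested, and 2 were called without Blank_1 or Blank_2. Tdp2, which removes trapped TOP2 from DNA ends, had a difference of 0.67 (edgeR adjusted p = 0.126). Tdp1, which removes trapped TOP1, went the other way at -0.46 (adjusted p = 0.0532), with each Dox library below the Blank libraries. Neither was called. Top3b (0.54) and Tdp2 (0.96) were higher in D_I than in B_I and Tdp1 (-0.63) was lower. The Tdp2 call was lost without B_I_3 (adjusted p = 0.193), D_I_1 (0.0501), D_I_2 (0.185) or D_I_3 (0.0521), with no filter on low counts (0.0668), with only the compared groups fitted (0.0939) and with 2 or 4 libraries left out (0.159 and 0.124), and the Tdp1 call without D_I_1 (0.0547). In Dox against H2O2 edgeR called 0 of the 11, 1 had an unadjusted p under 0.05, DESeq2 called 0 and limma 1 of 9; in H2O2 against Blank all of these counts were 0.

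Of 13 other drug transporters and the vault protein, 12 were tested, and Slc22a16, a carrier that takes up doxorubicin, averaged 0 CPM in all 6 groups. In Dox against Blank, 2 were higher and 2 lower, with a list median of 0.24, where 10.3% and 11.4% of all tested genes were. Abcc5, an exporter of cyclic nucleotides (0.64, edgeR adjusted p = 0.000272), and Abca2, a lipid transporter (0.58, adjusted p = 0.000151), rose. Mvp, the major vault protein, fell (-0.60, adjusted p = 2e-04), as did Abca3, a surfactant lipid transporter (-0.30, adjusted p = 0.0377). Abca3, outside the naming rule and chosen after its value was seen, lost its call without Blank_4 (adjusted p = 0.0912), Dox_1 (0.162), Dox_2 (0.0517) or Dox_3 (0.112), and in all in 9 of 16 alternatives, limma (0.342 and 0.341) and the fit of only the compared groups (0.0763) among them. In Dox against H2O2, Abca2 (0.58) and Abcb10 (0.39) were higher and Mvp (-0.47) lower; the Abcb10 call was lost without H2O2_1, H2O2_3 or any 1 Dox library (adjusted p up to 0.159) and in all in 9 of 15 alternatives. In D_I against B_I, Abca2 (0.84) and Abcc5 (0.51) were higher and Mvp (-0.46) lower, the last not under limma (adjusted p = 0.0829 with either pseudocount). In H2O2 against Blank edgeR called 0 of 12, with 2 at an unadjusted p under 0.05, DESeq2 called 1, and limma 0 or 1 of the 8 it tested, with a pseudocount of 1 or 0.1.

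Of 15 other reductases that act on anthracyclines or related carbonyls and quinones, 3 were higher and 3 lower in Dox than in Blank. Among all tested genes the shares were 10.3% and 11.4%. The list median was 0.12. Cbr2, a mitochondrial carbonyl reductase, fell from 309.8 to 107 CPM on average (log2 difference -1.53, SE 0.213, edgeR adjusted p = 3.6e-05), where Cbr1 differed by -0.095 and Cbr3 by 0.062. Akr1b3, aldose reductase, rose from 276 to 512 CPM (0.89, adjusted p = 0.00866). Akr1c18, a steroid reductase, rose from 0.165 to 7.68 CPM, a fitted log2 difference of 5.41 (adjusted p = 2.17e-05) that rests on very few Blank counts. The other 3, outside the naming rule and chosen after their values were seen, were Por (0.37), the P450 reductase, which rose, and Akr7a5 (-0.54) and Cyb5r3 (-0.36), which fell. The call of Por was lost without Blank_1, Blank_2, Dox_2 or Dox_3 (adjusted p up to 0.0934), with DESeq2 size factors (0.0608) and with only the compared groups fitted (0.0647). That of Cyb5r3 was lost without Blank_1, Dox_1 or Dox_3 (up to 0.153), under limma (0.149) and with only the compared groups fitted (0.072). In Dox against H2O2, Cbr2 (-1.05) and Cyb5r3 (-0.42) were lower, the latter not without H2O2_3 (adjusted p = 0.0813), Dox_1 (0.102) or Dox_3 (0.0524). In D_I against B_I 3 were higher, led by Akr1c18 (5.05) and Akr1b3 (0.78), and 2 lower, led by Cbr2 (-1.41). Akr1c18 averaged 0.175 CPM in B_I, and its difference there ran from 2.52 to 9.71 over the alternatives. In all, 3 were called without B_I_2, D_I_1, D_I_2 or D_I_3. Akr1b3 lost its call in each single omission but that of B_I_3 (adjusted p up to 0.0766), with no filter (0.0796) and without both Blank_4 and B_I_3 (0.0921). In H2O2 against Blank 1 of 15 was called, Akr1c18 (3.81, adjusted p = 0.0118; 0.0506 without H2O2_1), where DESeq2 and limma each called 3; the count was 3 without H2O2_2, 2 without Blank_4 and 0 to 3 over all alternatives.

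NRF2 controls several reductases and pumps, and 4 of 10 NRF2 targets were higher in Dox than in Blank and none lower (list median 0.28). Of all tested genes 10.3% were higher and 11.4% lower. Txnrd1, thioredoxin reductase, rose by 1.04 (edgeR adjusted p = 0.00184), Osgin1 by 0.72 (adjusted p = 0.0104; 0.0524 without Blank_2) and Hmox1, heme oxygenase, by 0.64 (adjusted p = 0.000108). Gclm, of glutathione synthesis and outside the naming rule, rose by 0.37 (adjusted p = 0.0374), a call lost without Blank_4, Dox_1, Dox_2 or Dox_3 (adjusted p up to 0.279) and in all in 10 of 16 alternatives. Nqo1, the quinone reductase often used as an NRF2 reporter, was at 23.1 CPM in Blank and 19.6 CPM in Dox (-0.24, adjusted p = 0.486). In D_I against B_I 4 were higher, led by Osgin1 (1.31), and 1 lower, and 3 were called in all without B_I_2, B_I_3 or D_I_2; in Dox against H2O2 Txnrd1 was called (0.89, adjusted p = 0.0104; 0.0662 without H2O2_3 and 0.0553 with no filter). Under H2O2, Hmox1 (0.73, adjusted p = 0.000469) and Osgin1 (1.04, adjusted p = 0.00784; 0.0534 without Blank_1) were called among the 10. With only the H2O2 and Blank libraries fitted, Hmox1 (adjusted p = 0.0763), Osgin1 (0.231) and Akr1c18 (0.326) were not called.

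Genes of G2 and mitosis, the cell cycle phases in which Top2a peaks, were higher in Dox than in Blank for 10 of 14. None was lower, and the list median was 0.81. Among all tested genes 10.3% were higher and 11.4% lower. The summed level of the 14 genes was 2339 to 2384 CPM in Dox, 2120 to 2173 CPM in D_I and 1341 to 1738 CPM in the other 12 libraries. Ccnb2 (1.04) and Ccnb1 (1.02), the B-type cyclins, and Aurka, a mitotic kinase (0.97), had the largest differences, with edgeR adjusted p of 3.86e-05, 2.38e-05 and 3.29e-07. Mki67, a proliferation marker, was at 28.7 CPM in Blank and 37.7 CPM in Dox (0.39, adjusted p = 0.226), and was called in Dox against H2O2 (1.11, adjusted p = 0.00196), where 10 of 14 were higher. In D_I against B_I 11 of 14 were higher (6 without B_I_2), and in H2O2 against Blank 1 (Aurka, 0.54, adjusted p = 0.00359; 0.326 with only the compared groups fitted), where DESeq2 called 2 and limma 5, and the count ranged from 0 to 7 over all alternatives and was 2 without Blank_2 or Blank_4. Top2a, at 0.63 in Dox against Blank, did not pass the test. Of 10 regulators of the transporter genes, 9 were tested, and edgeR called 0 in Dox against Blank (3 at an unadjusted p under 0.05; DESeq2 0, limma 2 of 8; 1 without Blank_2). Trp53, which encodes p53, was lower in D_I than in B_I (-0.28, adjusted p = 0.0426), a call lost without B_I_3, D_I_1, D_I_2 or D_I_3 (adjusted p up to 0.138), with no filter (0.0502) and under limma (0.185 and 0.181). With isoliensinine, edgeR called 0 of the 70 tested genes of these lists in B_I against Blank, D_I against Dox and H_I against H2O2. An unadjusted p under 0.05 was found for 3, 3 and 8 of them, and for 4.79%, 4.16% and 6.84% of all tested genes. DESeq2 called 0, 0 and 2 of the 70, and limma 0 of 60 in each.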

How the data were processed

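Polyadenylated RNA was sequenced after copying from random primers, per the labels' protocols; fastp 0.22.0, HTSeq 0.9.1 and HISAT2 2.1.0 are named in the submitters' processing notes, with no role. The deposited table holds raw read counts for each gene, as whole numbers, and FPKM values made by the authors, which equalled count over gene length and column total for 100% of values (within 1e-06). Columns were matched by title, and replicates of a group differed by more than sampling noise. Counts were tested in R 4.3.3 with edgeR 4.0.16 (quasi-likelihood, robust, TMM, filterByExpr; 13375 genes) with 1 coefficient per group, fitted to the 18 libraries together. Benjamini-Hochberg adjustment ran over all genes tested, and a gene was called under 0.05. SE is the absolute log2 difference over the square root of F, with 95% intervals. Whether libraries of 2 groups overlapped was recorded for the named genes only and not over all genes. The biological coefficient of variation was 0.219 and the median SE in Dox against Blank 0.229. The design text speaks of biological replicates without naming their source, so p-values measure the spread between these libraries. The pipeline was tested on simulated data. Alternatives used DESeq2 1.42.0, its size factors, limma 3.58.1 on log2 FPKM after adding a pseudocount of 1 or 0.1 (genes reaching 1 FPKM in 3 libraries), other filters, fewer groups, a replicate block and omitted libraries. A fold change on those limma scales understates the change of low genes.

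The members and the lists were chosen with earlier results of these data known. Named genes were the 8 members, up to 3 called genes per other list with the largest log2 difference, Cdkn1a, Mki67 and Nqo1, and the 3 genes most correlated with each member. Promoter sequences are RefSeq's in GRCm38.p6, and transcripts for shared windows GENCODE's; the table's coordinates were not combined with either. Protein sequences were not used here.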

Additional observations from a re-analysis of the deposited data

How the results depend on the processing

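Counts below are of the 8 genes. Replicate numbers are shared between groups but do not pair the samples: deviations of same-numbered libraries had correlations of -0.188 to 0.279, and in the 5 comparisons with 3 shared numbers 0 to 5 of 6 libraries correlated best with their own number. With a replicate block the count was 1 in Dox against Blank (2 without), 5 in Dox against H2O2 (3 without), 2 in D_I against B_I (1 without) and 1 in H_I against B_I (0 without); Abcb1b in Dox against Blank had an adjusted p of 0.13, Abcb1a and Abcb1b summed stood at 0.88 in Dox against Blank (adjusted p = 0.0729), 1.16 in H_I against B_I (0.0272) and 0.051 in the doxorubicin interaction, against -0.12 without, and Top2b in Dox against Blank at -0.19. The count in H_I against H2O2 was 1 under DESeq2. In H_I against B_I it was 1 under DESeq2 and with no filter, where the summed pair was 1.15 (adjusted p = 0.0175) and 1.16 (0.039) against 1.15 (0.0631). In D_I against B_I it was 3 and 2 under limma with pseudocounts of 1 and 0.1, 2 with only the groups compared, and 2 without Blank_4 and B_I_3 or without these, H2O2_3 and H_I_1; the summed pair there was 0.87 (adjusted p = 0.0532) with DESeq2 size factors, 0.89 (0.0932) with only the groups compared, and 0.62 (0.158) and 0.62 (0.0897) with 2 and 4 libraries left out. Leaving out each library gave counts of 1 to 2 in Dox against Blank, 1 to 4 in Dox against H2O2, 0 to 2 in D_I against B_I, 0 to 1 in H_I against B_I and 0 in the other comparisons, and log2 differences of the summed pair of 0.85 to 1.22 in Dox against Blank, 0.62 to 1.27 in D_I against B_I, 0.90 to 1.51 in H_I against B_I and -0.38 to 0.23 in the doxorubicin interaction. Signs that turned without a call were Cbr1 in Dox against Blank (0.067 and 0.079 under limma; single omissions -0.21 to 0.004271) and in H2O2 against Blank (-0.013 with 4 libraries left out), Top2b in Dox against Blank (-0.32 and -0.31 with 2 and 4 left out; -0.33 to 0.48), Cbr3 in Dox against Blank (-0.054 to 0.12), Abcg2 in H2O2 against Blank (-0.14 to 0.21), in B_I against Blank (-0.078 and -0.070 with 2 and 4 left out; -0.14 to 0.31), in D_I against Dox (-0.19 to 0.058) and in the doxorubicin interaction (0.002077 with 2 left out; -0.38 to 0.067), and Abcb1b in H2O2 against Blank (-0.42 to 0.055), B_I against Blank (-0.64 to 0.053), H_I against H2O2 (-0.062 to 0.57) and the doxorubicin interaction (-0.62 to 0.066). The cause of these changes was not tested. Genes called over the whole table ranged over all alternatives from 1876 to 3826 in Dox against Blank (2896 as reported), 5 to 689 in H2O2 against Blank (191), 0 to 53 in B_I against Blank (0), 0 to 263 in D_I against Dox (0), 0 to 70 in H_I against H2O2 (0), 845 to 2525 in Dox against H2O2 (1746), 1615 to 3655 in D_I against B_I (2518), 35 to 616 in H_I against B_I (195), and 0 to 76 and 0 to 63 in the doxorubicin and H2O2 interactions (0 each). Abcb1a and Top2b did not pass the FPKM filter of the limma fits. Depth limits Abcb1a (4 to 140 counts per library) and Abcb1b (23 to 245) most.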
